A study of Mus musculus with 12 samples.

Results

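The genes described here are 9 transcription factors and cofactors of the circadian output layer, measured in mouse liver: the REV-ERB genes Nr1d1 (Entrez 217166) and Nr1d2 (Entrez 353187), the ROR gene Rora (Entrez 19883), the PAR bZIP genes Dbp (Entrez 13170), Tef (Entrez 21685) and Hlf (Entrez 217082), and Nfil3 (Entrez 18030), Ciart (Entrez 229599) and Bhlhe40 (Entrez 20893). They were taken by gene symbol from a table of 24033 symbols, and all 9 were among the 12965 genes whose mean log2 level was at least 4. Liver RNA came from wild-type C57BL/6 females in 4 groups of 3 libraries, each taken 6 h after treatment: ovariectomized females given dexamethasone (1 mg/kg), ovariectomized females given PBS as vehicle, intact females given dexamethasone (1 mg/kg) and intact females given PBS. Dexamethasone is a synthetic agonist of the glucocorticoid receptor, and removal of the ovaries takes away most circulating oestrogen. The labels used here name neither the clock time of collection nor the age of the mice nor any sham operation of the intact mice. Nor do they state that each replicate is another mouse, and p-values therefore cover only the variation among these libraries, which may be technical.

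In the liver clock, the activator pair CLOCK and BMAL1 (encoded by Arntl) binds E-boxes and drives, among others, Nr1d1, Nr1d2, Dbp, Tef and Ciart. The REV-ERB receptors repress and the ROR receptors activate genes that carry a shared response element, Arntl and Nfil3 among them, while the PAR bZIP factors activate and NFIL3 represses genes with D-boxes. CIART (also called CHRONO) and BHLHE40 (also called DEC1) act back on the activator pair as repressors. Through these branches the clock gives daily rhythms to bile acid, lipid and drug metabolism in the liver.

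The sequences just before the transcription starts were searched for the letters of such sites. RefSeq promoters (assembly GRCm38.p6) were matched for 8 of the 9 genes, all but Bhlhe40, in 9 windows of 250 bases upstream of a start. Both strands were searched for the E-box CACGTG, the E'-box CACGTT, the D-boxes TTATGTAA and TTACGTAA, the nuclear receptor hexamer AGGTCA and the palindromic consensus of the glucocorticoid response element, none of which contains another. Of 32851 windows of the same length, 6.02% held CACGTG, 3.85% CACGTT, 0.819% TTATGTAA, 0.113% TTACGTAA, 14% AGGTCA and 0.00913% the glucocorticoid element. The sequences below are those of the genes with a match, 5′ to 3′ on the gene's own strand, with each match in capitals. For Ciart (chr3:95882229-95882478, minus strand) the 3 E-boxes begin 116, 58 and 44 bases before the start. For Nr1d1 (chr11:98775378-98775627, minus strand) the E'-box begins 28 bases before the start and reads AACGTG on this strand. For Tef (the first of 2 annotated starts, chr15:81802423-81802672, plus strand) an E-box begins 127 bases before the start. For Nr1d2 (chr14:18239107-18239356, minus strand) and Nfil3 (chr13:52981040-52981289, minus strand) a hexamer begins 77 and 12 bases before the start, and in Nfil3 it reads TGACCT.
Ciart: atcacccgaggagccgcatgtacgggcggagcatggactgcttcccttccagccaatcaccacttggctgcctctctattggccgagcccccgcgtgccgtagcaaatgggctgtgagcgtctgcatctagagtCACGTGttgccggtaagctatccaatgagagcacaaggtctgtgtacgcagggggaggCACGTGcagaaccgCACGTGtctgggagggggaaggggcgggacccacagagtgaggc
Nr1d1: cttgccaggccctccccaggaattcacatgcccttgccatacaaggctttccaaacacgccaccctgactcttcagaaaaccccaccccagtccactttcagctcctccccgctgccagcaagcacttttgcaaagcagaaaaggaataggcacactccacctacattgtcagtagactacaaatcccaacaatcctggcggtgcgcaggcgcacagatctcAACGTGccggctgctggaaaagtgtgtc
Tef: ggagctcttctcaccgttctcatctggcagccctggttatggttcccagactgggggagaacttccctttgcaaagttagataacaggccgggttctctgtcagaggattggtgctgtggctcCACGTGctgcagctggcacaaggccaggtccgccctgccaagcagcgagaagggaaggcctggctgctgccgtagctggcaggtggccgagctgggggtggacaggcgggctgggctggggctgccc
Nr1d2: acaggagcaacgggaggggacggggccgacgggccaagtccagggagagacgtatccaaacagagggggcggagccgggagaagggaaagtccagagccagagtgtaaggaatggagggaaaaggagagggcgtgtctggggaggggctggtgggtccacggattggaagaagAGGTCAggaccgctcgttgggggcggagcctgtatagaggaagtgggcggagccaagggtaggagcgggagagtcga
Nfil3: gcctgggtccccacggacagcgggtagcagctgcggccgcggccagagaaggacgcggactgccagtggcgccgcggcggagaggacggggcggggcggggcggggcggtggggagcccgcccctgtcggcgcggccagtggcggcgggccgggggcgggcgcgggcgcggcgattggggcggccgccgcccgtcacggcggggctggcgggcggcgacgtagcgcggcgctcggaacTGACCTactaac
The other Tef start (chr15:81811164-81811413) also had 1 E-box, 138 bases upstream. The windows of Dbp, Rora and Hlf held none of the searched letters, and none of the 9 windows held a D-box or the glucocorticoid element. A match is a description of the letters and not of binding. Sites outside these 250 bases, or spelled otherwise, were not searched, so a window without a match does not show that a gene lacks such sites.

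Levels are deposited log2 values, in which read depth can no longer be seen, and each difference is a log2 fold change with its SE in limma. The medians of the 12 libraries lay between 8.82 and 8.86. The defining hepatocyte markers were high in every library, the lowest of 7 averaging 12.8. Of 8 glucocorticoid control genes (Fkbp5, Tsc22d3, Zbtb16, Dusp1, Tat and others), 5 rose with dexamethasone in ovariectomized and 6 in intact females, and 0 fell in either. Over all genes tested, 21.3% rose in ovariectomized and 22.8% in intact females. The Dusp1 response was 0.49 in ovariectomized and 1.88 in intact females. In ovariectomized females its libraries overlapped, at 9.89 to 10.54 with dexamethasone and 9.48 to 10.10 with vehicle. Fkbp5, a chaperone of the glucocorticoid receptor, rose by 2.29 ± 0.22 in ovariectomized and by 1.28 ± 0.22 in intact females (limma adjusted p = 2.2e-05 and 0.000591). Tsc22d3, the gene of the leucine zipper protein GILZ, rose by 1.13 ± 0.15 and 0.59 ± 0.15 in the same order. In whole liver, fewer cells of a type and less RNA per cell cannot be told apart.

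With dexamethasone, Dbp, Nr1d1 and Nr1d2 fell and Ciart rose in both gonadal states. In ovariectomized females 6 of the 9 genes passed the threshold (adjusted p under 0.05), 1 higher and 5 lower, where 40.7% of all genes tested passed. In intact females also 6 of 9 passed, 1 higher and 5 lower, where 48.8% of all genes passed. Falls made up 19.4% of all genes tested in ovariectomized and 25.9% in intact females, and rises 21.3% and 22.8%. The median log2 fold change of the 9 genes was -0.40 in ovariectomized females, against -0.00029 over all genes, and -0.35 in intact females, against 0.0013 over all genes. The median size of change was 0.88 and 0.38 log2 units in ovariectomized and intact females, against 0.19 and 0.23 over all genes.

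**Figure D1:**
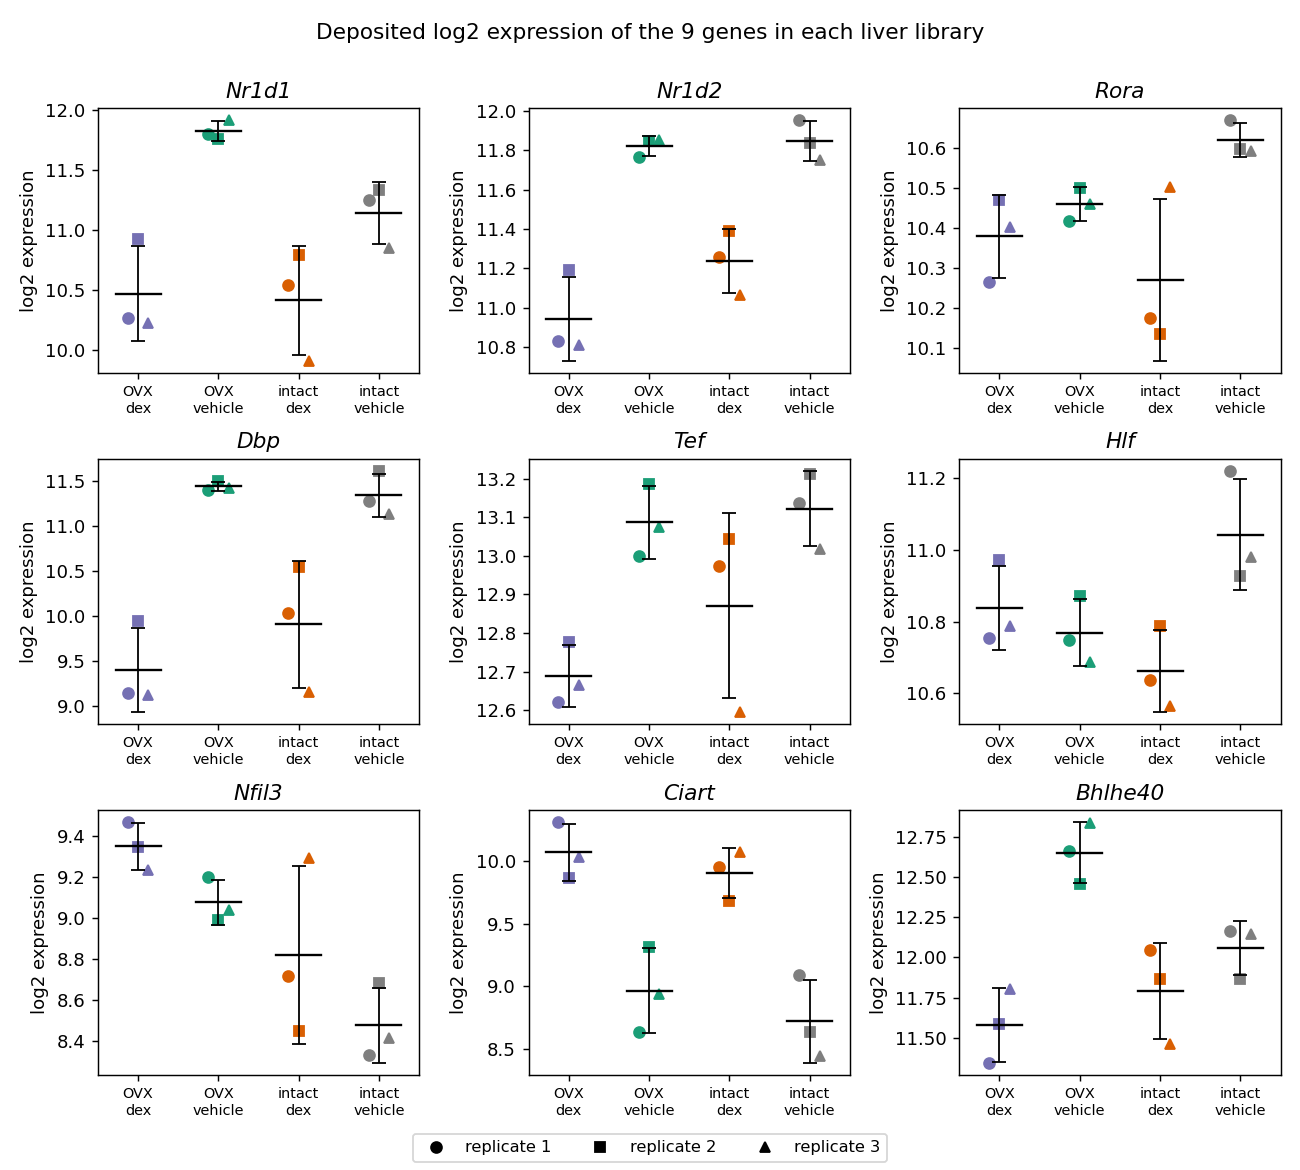
Deposited log2 level (vertical axis) of each of the 9 genes in the 12 libraries, in the order ovariectomized dexamethasone, ovariectomized vehicle, intact dexamethasone and intact vehicle; points are libraries, with a marker shape for each replicate number, and bars give the mean ± SD of 3 libraries. Dbp is near 9.40 and 9.91 in the dexamethasone groups and above 11 in every vehicle library, whereas Ciart lies higher under dexamethasone and Rora, between 10.13 and 10.67, shows the narrowest range.

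Nr1d1 encodes REV-ERB alpha, a haem-binding receptor that represses transcription. In ovariectomized females its log2 level was 10.26, 10.92 and 10.22 in the dexamethasone libraries, against 11.80, 11.76 and 11.91 in the vehicle libraries. In intact females it was 10.54, 10.79 and 9.91 with dexamethasone, against 11.25, 11.33 and 10.85 with vehicle. All dexamethasone libraries lay below all vehicle libraries of the same state, but in intact females the gap was only between 10.79 and 10.85. Nr1d1 fell by 1.35 ± 0.22 in ovariectomized females, a 2.55-fold lower level (limma adjusted p = 0.00073), and by 0.73 ± 0.22 in intact females, 1.66-fold lower (limma adjusted p = 0.0181). The call in intact females was lost without intact dexamethasone replicate 3 (-0.48, limma adjusted p = 0.0656), without intact vehicle replicate 1 or 2 (-0.68 and -0.64, adjusted p = 0.0585 and 0.0636), and with no filter on low genes (adjusted p = 0.0771).

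Nr1d1 also differed between the vehicle groups. Under vehicle it was higher in ovariectomized females, at 11.82 ± 0.079 against 11.14 ± 0.26 in intact females (SD, n = 3 each). This rise of 0.68 ± 0.22 (limma adjusted p = 0.0411) made it 1.6-fold higher, with no overlap between the libraries. Under dexamethasone the means were 10.47 ± 0.39 in ovariectomized and 10.41 ± 0.45 in intact females, and the groups overlapped. The vehicle call was lost without intact dexamethasone replicate 1, intact vehicle replicate 1 or 3, or any of the 3 ovariectomized vehicle replicates (limma adjusted p from 0.0533 to 0.148), and with no filter (0.139), no variance trend (0.0505) or a robust prior (0.0594).

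Nr1d2 encodes REV-ERB beta, which shares the response element of Nr1d1 and overlaps with it in function. In ovariectomized females its level was 10.83, 11.19 and 10.81 with dexamethasone, against 11.76, 11.85 and 11.85 with vehicle. Intact females had 11.25, 11.39 and 11.07 with dexamethasone, against 11.95, 11.84 and 11.75 with vehicle. The vehicle libraries of both states lay between 11.75 and 11.95, and every dexamethasone library lay below them. Nr1d2 fell by 0.88 ± 0.1 in ovariectomized females (1.84-fold, limma adjusted p = 0.000103) and by 0.61 ± 0.1 in intact females (1.53-fold, adjusted p = 0.000597). Both calls held under every alternative processing and with each library left out in turn. Between the vehicle groups Nr1d2 differed by -0.02 ± 0.1, with a 95% interval of -0.25 to 0.20.

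Rora encodes ROR alpha, the activator that competes with the REV-ERB receptors for their element. Its level in ovariectomized females was 10.26, 10.47 and 10.40 with dexamethasone, against 10.42, 10.50 and 10.46 with vehicle. In intact females it was 10.17, 10.13 and 10.50 with dexamethasone, against 10.67, 10.60 and 10.59 with vehicle. The groups overlapped in ovariectomized but not in intact females, where dexamethasone replicate 3, at 10.50, came nearest to the vehicle libraries. Rora fell by 0.35 ± 0.087 in intact females (1.27-fold, limma adjusted p = 0.00609), and its change in ovariectomized females was -0.08 ± 0.087 (95% interval -0.27 to 0.11, limma adjusted p = 0.487). The difference between these responses was 0.27 ± 0.12 and did not pass (limma adjusted p = 0.127). Without intact dexamethasone replicate 3 it was 0.39, with a limma adjusted p of 0.00912.

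Dbp, a PAR bZIP gene known for its strong daily rhythm in liver, had the largest dexamethasone changes among the 9 genes. In ovariectomized females its level was 9.15, 9.94 and 9.12 with dexamethasone, against 11.40, 11.49 and 11.42 with vehicle. Intact females had 10.03, 10.54 and 9.15 with dexamethasone, against 11.27, 11.60 and 11.13 with vehicle. The lowest vehicle library was 11.13 and the highest dexamethasone library 10.54, so treatments did not overlap even across gonadal states. Dbp fell by 2.03 ± 0.3 in ovariectomized females (95% interval -2.69 to -1.38), 4.09-fold lower with a limma adjusted p of 0.000353, and ranked 10th among the falls of 12965 genes. In intact females it fell by 1.43 ± 0.3 (95% interval -2.08 to -0.78), 2.69-fold lower with a limma adjusted p of 0.00214, and ranked 40th. Ovariectomized and intact females differed by 0.10 ± 0.3 under vehicle and by -0.50 ± 0.3 under dexamethasone, where the groups overlapped (limma adjusted p = 0.825 and 0.268). Under dexamethasone the difference was -0.88 without intact dexamethasone replicate 3 (limma adjusted p = 0.0383) and -0.72 with library weights (adjusted p = 0.00745).

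Tef and Hlf encode the other PAR bZIP factors and moved far less. Tef was at 12.62, 12.78 and 12.66 with dexamethasone in ovariectomized females, against 13.00, 13.19 and 13.07 with vehicle, and at 12.97, 13.04 and 12.60 with dexamethasone in intact females, against 13.14, 13.21 and 13.02 with vehicle. Tef fell by 0.40 ± 0.1 in ovariectomized females (1.32-fold, limma adjusted p = 0.00985), and in intact females its groups overlapped and the change was -0.25 ± 0.1 (limma adjusted p = 0.0642). Without intact dexamethasone replicate 2, the change in intact females was -0.34 (limma adjusted p = 0.0226), without replicate 3 it was -0.11 (adjusted p = 0.249), and with quantile normalization -0.08 (adjusted p = 0.512). The difference between the Tef responses was -0.15 ± 0.15 (limma adjusted p = 0.485), so the states were not shown to differ.

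Hlf was at 10.76, 10.97 and 10.79 with dexamethasone in ovariectomized females, against 10.75, 10.87 and 10.69 with vehicle. In intact females it was at 10.64, 10.79 and 10.56 with dexamethasone, against 11.22, 10.93 and 10.98 with vehicle. The ovariectomized groups overlapped and the intact groups did not. Hlf fell by 0.38 ± 0.09 in intact females (1.3-fold, limma adjusted p = 0.00443), while its change in ovariectomized females was 0.07 ± 0.09 (95% interval -0.13 to 0.27). Under vehicle it was lower in ovariectomized than in intact females by 0.27 ± 0.09, 1.21-fold (limma adjusted p = 0.0404). That call was lost without intact dexamethasone replicate 1, intact vehicle replicate 1 or 3, ovariectomized dexamethasone replicate 3, or ovariectomized vehicle replicate 1 or 3 (limma adjusted p from 0.0528 to 0.163), and with no filter (0.111), quantile normalization (0.0675) or no variance trend (0.0531).

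Nfil3, the repressor at D-boxes, passed by gonadal state under vehicle and in neither dexamethasone comparison. In ovariectomized females its level was 9.47, 9.35 and 9.23 with dexamethasone, against 9.20, 8.99 and 9.04 with vehicle. Intact females had 8.72, 8.45 and 9.30 with dexamethasone, against 8.33, 8.68 and 8.41 with vehicle. The treatments did not overlap in ovariectomized females, yet the dexamethasone changes of 0.27 ± 0.17 and, in intact females, 0.34 ± 0.17 did not pass (limma adjusted p = 0.227 and 0.121). In a fit of the 6 ovariectomized libraries alone its adjusted p was 0.0309. Without intact dexamethasone replicate 2 the change in intact females was 0.53 (limma adjusted p = 0.0171), and without replicate 3 of that group it was 0.11 (adjusted p = 0.495). Under vehicle Nfil3 was higher in ovariectomized than in intact females by 0.60 ± 0.17, 1.52-fold (limma adjusted p = 0.0234). That call was lost without intact vehicle replicate 1 or 3 or ovariectomized vehicle replicate 1 or 3 (limma adjusted p from 0.0515 to 0.0888), and with no filter (0.0874).

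Ciart was the only one of the 9 genes that passed as higher with dexamethasone in either state. In ovariectomized females its level was 10.31, 9.86 and 10.03 with dexamethasone, against 8.64, 9.32 and 8.94 with vehicle. In intact females it was 9.95, 9.68 and 10.07 with dexamethasone, against 9.09, 8.63 and 8.44 with vehicle. Every dexamethasone library, from 9.68 upwards, lay above every vehicle library, the highest of which was 9.32. Ciart rose by 1.10 ± 0.19 in ovariectomized females (2.15-fold, limma adjusted p = 0.00101) and by 1.18 ± 0.19 in intact females (2.27-fold, adjusted p = 0.000458). The difference between the responses was -0.08 ± 0.27, with a 95% interval of -0.68 to 0.52 that allows a difference of up to 0.68 log2 units. Gonadal states differed by 0.24 ± 0.19 under vehicle and 0.16 ± 0.19 under dexamethasone, and the groups overlapped in both cases.

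Bhlhe40, the DEC1 repressor, was lower with dexamethasone in ovariectomized females. Its level there was 11.35, 11.59 and 11.81 with dexamethasone, against 12.66, 12.45 and 12.83 with vehicle. Intact females had 12.05, 11.87 and 11.46 with dexamethasone, against 12.17, 11.87 and 12.15 with vehicle. In ovariectomized females the highest dexamethasone library, at 11.81, lay well below the lowest vehicle library, at 12.45, while the intact groups overlapped between 11.87 and 12.05. Bhlhe40 fell by 1.07 ± 0.16 in ovariectomized females (2.1-fold, limma adjusted p = 0.000354), and its change in intact females was -0.27 ± 0.16 (limma adjusted p = 0.182; -0.10 without intact dexamethasone replicate 3). Under vehicle it was higher in ovariectomized than in intact females by 0.59 ± 0.16, 1.51-fold (limma adjusted p = 0.0168), and this call was lost without intact vehicle replicate 2 or ovariectomized vehicle replicate 3 (adjusted p = 0.0525 and 0.064), and with no filter (0.0692). Under dexamethasone the difference was -0.21 ± 0.16 and the groups overlapped.

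**Figure D2:**
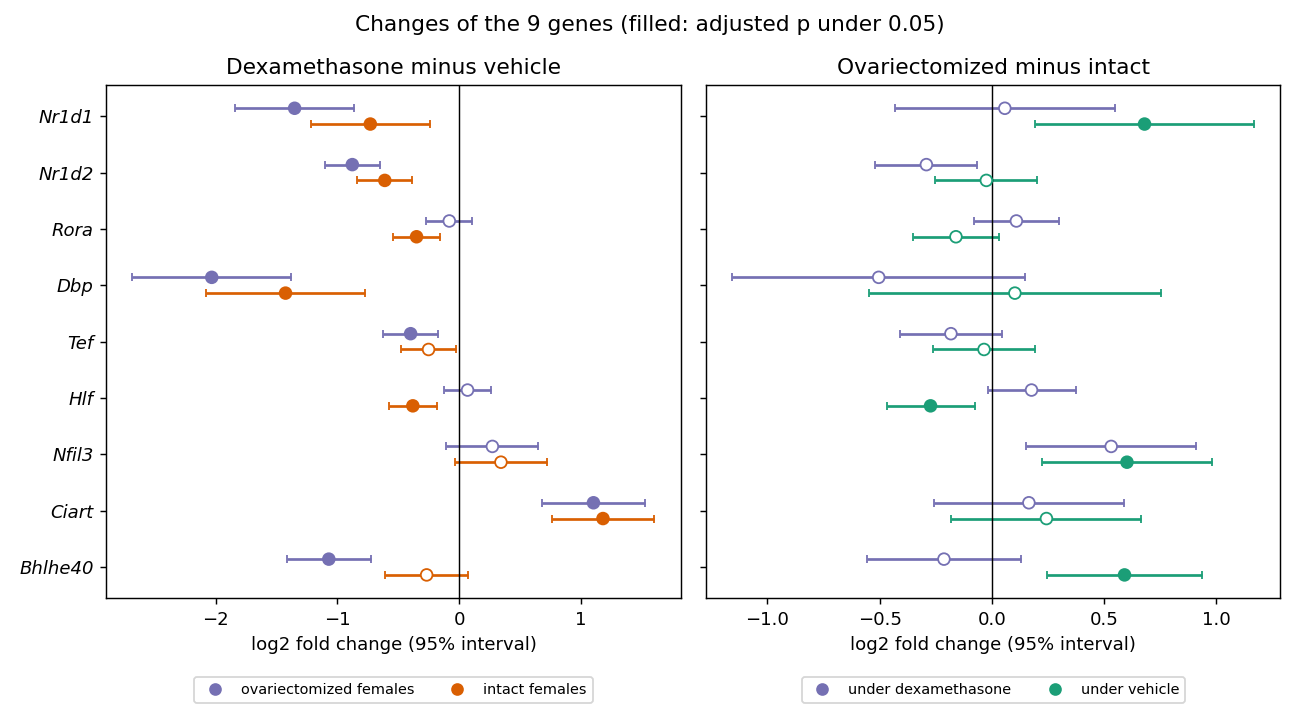
Log2 fold change (horizontal axis) of each gene with its 95% interval from limma, filled where the adjusted p was under 0.05; the left panel gives dexamethasone minus vehicle in ovariectomized (upper mark) and intact females, the right panel ovariectomized minus intact under dexamethasone (upper mark) and vehicle. On the left Dbp, Nr1d1 and Nr1d2 lie below 0 and Ciart above 0 in both states, and on the right filled marks stand only under vehicle, for Nr1d1, Hlf, Nfil3 and Bhlhe40.

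Read by gonadal state, ovariectomy was set against the intact state under each treatment. Under vehicle 4 of the 9 genes passed, where 27.9% of all genes did: Nr1d1, Nfil3 and Bhlhe40 were higher and Hlf was lower in ovariectomized females. The libraries of the groups did not overlap for 5 of 9 genes (the 4 and Rora), where this held for 45.0% of all genes. Under dexamethasone limma called 0 of 9, where 12.8% of all genes passed, and 2 of 9 (Nr1d2 and Nfil3) had an unadjusted p under 0.05. No gene of the 9 was free of overlap there, where 34.1% of all genes were. The count of 4 under vehicle was 0 without ovariectomized vehicle replicate 3 and with no filter on low genes, 1 without intact vehicle replicate 1 or 3 or ovariectomized vehicle replicate 1, and 2 without intact dexamethasone replicate 1. The count of 0 under dexamethasone was 5 without intact dexamethasone replicate 3 (Rora and Nfil3 higher, Nr1d2, Dbp and Tef lower) and 1 without ovariectomized dexamethasone replicate 2 (Nr1d2 lower).

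The libraries of the dexamethasone and vehicle groups did not overlap for 7 of 9 genes in ovariectomized females, where 54.6% of all genes showed this, and for 6 of 9 in intact females, where 55.5% did. The signed response differed between the states for 2 of 9 genes, where 24.9% of all genes tested passed. Of all genes, 15.3% had a higher and 9.65% a lower response in ovariectomized females. A higher response can be a larger rise, a smaller fall or a change of direction. The Hlf response was higher in ovariectomized than in intact females by 0.45 ± 0.13 (95% interval 0.17 to 0.73, limma adjusted p = 0.0243). It was 0.07 in ovariectomized and -0.38 in intact females. The Bhlhe40 response was lower by 0.80 ± 0.22 (95% interval -1.29 to -0.32, limma adjusted p = 0.0223), at -1.07 in ovariectomized and -0.27 in intact females. For Nr1d1 and Dbp the responses differed by -0.62 ± 0.32 and -0.61 ± 0.42, which did not pass (limma adjusted p = 0.166 and 0.309). The call for Hlf was lost without intact dexamethasone replicate 1, intact vehicle replicate 1, ovariectomized dexamethasone replicate 2, or ovariectomized vehicle replicate 1 or 3 (adjusted p from 0.0519 to 0.0567), and with quantile normalization (0.0797), and that for Bhlhe40 without intact dexamethasone replicate 1 or ovariectomized vehicle replicate 3 (0.0562 and 0.0532). Without intact dexamethasone replicate 3 the count was 5, with Nr1d1 (-0.87), Dbp (-0.98) and Rora (0.39) added. Without ovariectomized dexamethasone replicate 2 the Nr1d2 responses differed by -0.39 (limma adjusted p = 0.0406). The calls of Hlf and Bhlhe40 were both lost without intact dexamethasone replicate 1, without ovariectomized vehicle replicate 3 and with no filter.

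**Figure D3:**
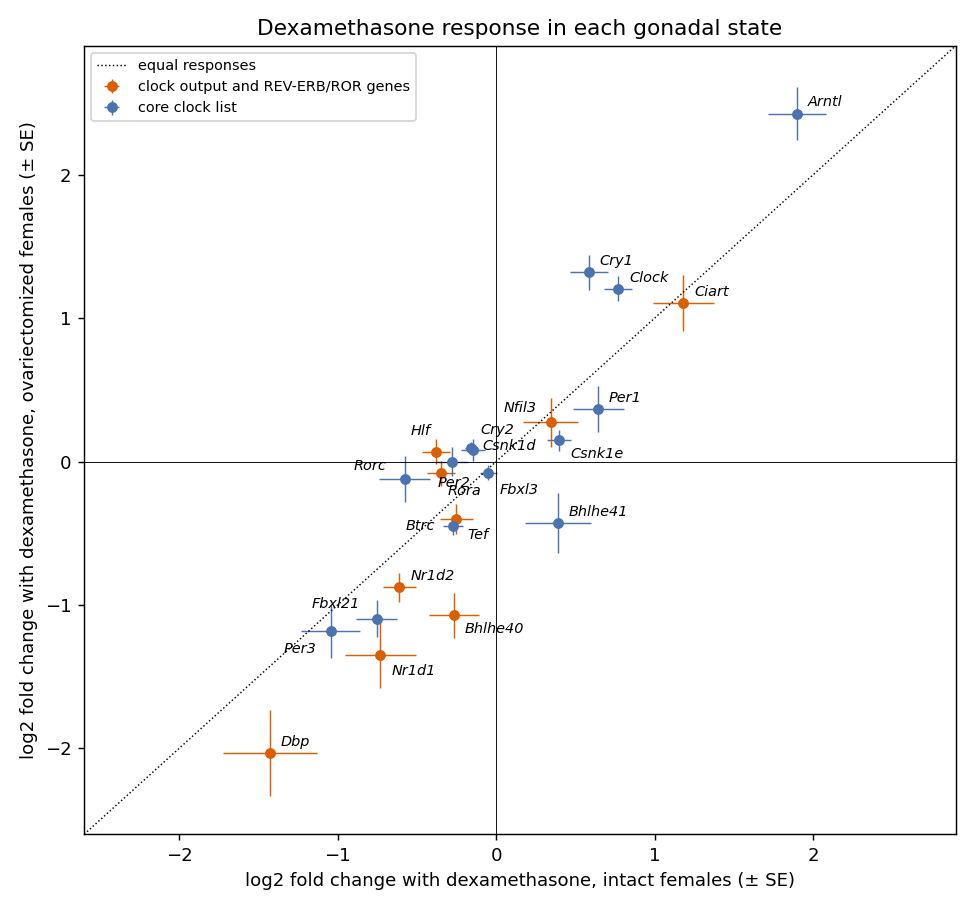
Dexamethasone response in ovariectomized females (vertical axis, log2 fold change ± SE) against that in intact females (horizontal axis) for the 9 genes and for 14 core clock genes; the dotted line marks equal responses. Dbp, Nr1d1, Nr1d2 and Bhlhe40 lie at the lower left and below the line, Ciart lies near it at 1.10 against 1.18, and Arntl is the highest point, at 2.43 against 1.90.

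Replicates of 1 group differed from each other along several of these genes at once. Relative to its group mean, intact dexamethasone replicate 3 was lower in Dbp by 0.76, in Nr1d1 by 0.50, in Bhlhe40 by 0.33 and in Tef by 0.27 log2 units, and higher in Nfil3 by 0.48 and in Rora by 0.23. Intact dexamethasone replicate 2 deviated the other way, at 0.64 for Dbp and 0.38 for Nr1d1 and at -0.37 for Nfil3. Ovariectomized dexamethasone replicate 2 was also high in Dbp, Nr1d1 and Nr1d2, by 0.54, 0.45 and 0.25. The SD of Dbp was 0.46 with dexamethasone in ovariectomized females, against 0.047 with vehicle, and 0.70 in intact females, against 0.24 with vehicle. For Ciart the order was the other way round, at 0.22 with dexamethasone against 0.34 with vehicle in ovariectomized females and 0.20 against 0.33 in intact females. Arntl and Per3, which are not among the 9 genes, varied in the same intact libraries. Arntl was lowest in intact dexamethasone replicate 2 at 7.43, against 8.14 and 8.30 in the other replicates, and Per3 was highest there at 11.08, against 10.90 and 10.24. In ovariectomized dexamethasone replicate 2 Per3 was also highest, at 10.55 against 10.16 and 10.16. Arntl was not lowest there, at 8.40 against 8.31 and 8.65.

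**Figure D4:**
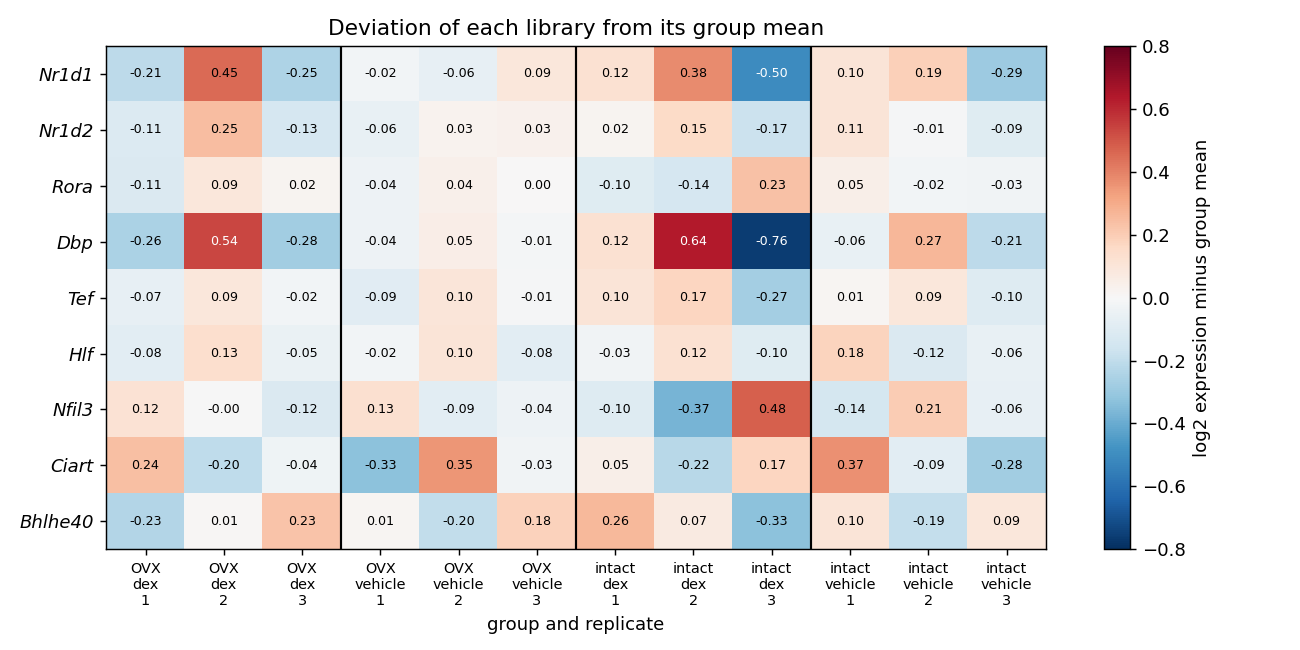
Deviation of each library from its own group mean (colour, log2 units) for the 9 genes (rows), with the 12 libraries as columns in the order of the groups above. Intact dexamethasone replicate 3 is lowest in Dbp (-0.76) and Nr1d1 (-0.50) and highest in Nfil3 (0.48), and replicate 2 of the same group has the opposite signs.

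The core clock was described through 14 measured genes of 16 listed, none of them among the 9; Npas2 and Rorb were under the level filter. In ovariectomized females 3 of 14 rose and 3 fell with dexamethasone (median 0.04), near the 21.3% and 19.4% of all genes that did. In intact females 5 rose and 6 fell (median -0.10), where 22.8% of all genes rose and 25.9% fell. Arntl rose most: its level was 8.31, 8.40 and 8.65 with dexamethasone in ovariectomized females, against 6.07, 5.93 and 6.07 with vehicle, and 8.14, 7.43 and 8.30 in intact females, against 5.99, 6.00 and 6.18 with vehicle. That is a rise of 2.43 ± 0.18 in ovariectomized and 1.90 ± 0.18 in intact females (limma adjusted p = 4.5e-06 and 1.56e-05). Clock, which encodes the partner of BMAL1, rose by 1.21 ± 0.09 and 0.77 ± 0.09, and Cry1, a repressor of that pair, by 1.32 ± 0.12 and 0.59 ± 0.12, in the same order of states. Per3 fell by 1.18 ± 0.19 and 1.04 ± 0.19, and Fbxl21, an F-box gene whose product acts on cryptochromes, by 1.10 ± 0.13 and 0.75 ± 0.13. Per1, a period gene that glucocorticoids are known to induce, rose by 0.64 ± 0.16 in intact females and changed by 0.36 ± 0.16 in ovariectomized females (limma adjusted p = 0.00627 in intact and 0.091 in ovariectomized females). The difference between the Per1 responses did not pass (limma adjusted p = 0.387).

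Of 12 measured REV-ERB and ROR target genes, 7 rose and 1 fell with dexamethasone in each state, where 21.3% of all genes rose in ovariectomized and 22.8% in intact females. Their median was 0.64 in ovariectomized and 0.70 in intact females. This list shares Arntl, Clock and Cry1 with the core clock list and Elovl3 with the other clock-controlled outputs below. Among its other members, Insig2, which holds back SREBP processing, rose by 2.15 ± 0.15 and 1.5 ± 0.15, and Cyp8b1, the sterol hydroxylase of cholic acid synthesis, by 0.95 ± 0.16 and 1.16 ± 0.16 in ovariectomized and intact females. Elovl3, a fatty acid elongase, rose by 1.68 ± 0.46 in ovariectomized females (limma adjusted p = 0.012) and its change in intact females was 0.51 ± 0.46 (adjusted p = 0.376). The difference between its responses did not pass. Its dexamethasone libraries ran from 7.75 to 9.91 in ovariectomized and from 6.82 to 7.98 in intact females, and thus overlapped. In intact females the fall was that of Cyp7b1, a hydroxylase of the alternative bile acid pathway, by 0.53 ± 0.12 (limma adjusted p = 0.00325).

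Of 14 PAR bZIP target genes, 3 rose and 3 fell in ovariectomized females (median -0.01), where 21.3% of all genes rose and 19.4% fell, so that these counts were near the share over all genes. In intact females 2 rose and 8 fell (median -0.42), where 22.8% of all genes rose and 25.9% fell. This list shares Per1 and Per3 with the core clock list, Per1 also with the glucocorticoid control genes, and Por with the other outputs below. These genes are counted again in each list. Cyp2b10, a P450 of drug metabolism, rose by 2.28 ± 0.13 and 1.97 ± 0.13 in the 2 states. The near-identical paralogs Cyp2a4 and Cyp2a5, between which reads can be split wrongly, fell by 1.18 ± 0.21 and 0.79 ± 0.17 in ovariectomized females and by 1.15 ± 0.21 and 1.2 ± 0.17 in intact females. Cyp7a1, the rate-limiting enzyme of bile acid synthesis, rose by 1.16 ± 0.18 in ovariectomized females (limma adjusted p = 0.000516) and changed by 0.20 ± 0.18 in intact females (adjusted p = 0.391).

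Of 8 other clock-controlled output genes, 5 rose and 2 fell in ovariectomized females, and 0 rose and 2 fell in intact females (medians 0.49 and 0.05), against the same shares of all genes. Wee1, a cell cycle kinase gene driven by E-boxes, fell by 0.74 ± 0.12 and 1.21 ± 0.12 in the 2 states. Por, the electron donor of microsomal P450 enzymes, rose by 0.70 ± 0.1 in ovariectomized females and changed by -0.12 ± 0.1 in intact females (limma adjusted p = 0.000275 and 0.325). Lonrf3 rose by 1.18 ± 0.12 in ovariectomized females, and its change in intact females was 0.21 ± 0.12 (limma adjusted p = 0.154). Nocturnin, listed as Ccrn4l, fell by 0.79 ± 0.29 in ovariectomized females (limma adjusted p = 0.0459), and its change in intact females was 0.65 ± 0.29 (adjusted p = 0.0795).

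By gonadal state under vehicle, 1 of the 14 core clock genes was higher and 3 lower in ovariectomized females, against 12.4% higher and 15.5% lower of all genes. The counts were 3 higher and 1 lower of 12 REV-ERB and ROR targets, 1 and 2 of 14 PAR bZIP targets, 1 and 5 of 8 other outputs, and 2 and 1 of 8 glucocorticoid control genes. The 5 lower outputs included Por, by 0.57 ± 0.1, Lonrf3, by 0.64 ± 0.12, and Wee1, by 0.47 ± 0.12, while Ccrn4l was higher by 1.18 ± 0.29 (limma adjusted p = 0.0113). Per1 was higher by 0.56 ± 0.16 (limma adjusted p = 0.0241). Under dexamethasone the counts were 1 higher and 1 lower in the core clock, 2 and 0 among REV-ERB and ROR targets, 1 and 0 among glucocorticoid control genes and none in the other 2 lists, against 7.74% higher and 5.08% lower of all genes.

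The genes most like each member were found by the root mean square difference of centred log2 levels over the 12 libraries, which carries the group differences as well as the spread within groups. For Dbp, whose own SD over the 12 libraries was 1.00, these were Rnf152 (0.258), Gm1600 (0.288) and Lgr5 (0.297). For Nr1d1 (SD 0.661) they were Arrdc4 (0.175), Mug-ps1 (0.194) and E230016M11Rik (0.195), and for Nr1d2 (SD 0.422) Fam188b (0.0901), Phka2 (0.0981) and Cdc14b (0.1). The likest to Ciart (SD 0.653) were Nrbp2 (0.183), Pole4 (0.199) and Tchh (0.213), and to Bhlhe40 (SD 0.462) Chn1os3 (0.166), Il1a (0.166) and Pqlc1 (0.170). Nfil3 (SD 0.399) had Mir17hg (0.167), 1810032O08Rik (0.174) and Hilpda (0.178). Rora (SD 0.167) had Kif21a (0.0582), Esyt2 (0.0615) and Mbd5 (0.0693). Tef (SD 0.220) had B630019K06Rik (0.0570), Pola2 (0.0641) and Ddx59 (0.0684), and Hlf (SD 0.178) had Pnpla8 (0.0513), Arfgef1 (0.0608) and Smc1a (0.0643). The measure is not scaled by the SD of a gene, so genes that vary little come out near each other. Within the 9 genes the smallest difference was that of Rora and Hlf (0.148), close to their own SDs of 0.167 and 0.178. The nearest to Dbp was Nr1d1 (0.466), where the SDs were 1.00 and 0.661.

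Exons of several of the genes overlap a gene on the opposite strand in the GENCODE M21 annotation of GRCm38, which is not the build of the deposited table. Dbp shares 539 of 1837 exon bases (29.3%) with Sphk2 and Nr1d1 shares 263 of 2721 (9.67%) with Thra, while the shares of Tef, Bhlhe40 and Rora with noncoding antisense genes were 4.1%, 3.72% and 0.729%. Whether counting used the strand is not given in the sources used here, and without strand the reads of such stretches cannot be told apart. Sphk2, a sphingosine kinase gene, rose by 0.61 ± 0.11 in ovariectomized and 0.39 ± 0.11 in intact females with dexamethasone, opposite in sign to Dbp. Thra, which encodes thyroid hormone receptor alpha, changed by -0.02 ± 0.094 in ovariectomized females and fell by 0.24 ± 0.094 in intact females (limma adjusted p = 0.889 and 0.0491).

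Several markers of the cell types of the liver passed the threshold. With dexamethasone 21.3% of all genes rose and 19.4% fell in ovariectomized females, and 22.8% and 25.9% in intact females. Under vehicle 12.4% were higher and 15.5% lower in ovariectomized than in intact females, and under dexamethasone 7.74% and 5.08%. Against these shares, a count of 1 or 2 in so short a list says little. The 4 B cell markers fell with dexamethasone in both states, and their summed log2 level lay at 7.01 to 7.13 with dexamethasone in ovariectomized females, against 7.74 to 8.07 with vehicle, and at 7.27 to 7.37 in intact females, against 7.75 to 8.20 with vehicle. The 6 stellate and fibroblast markers summed to 13.47 to 13.69 with dexamethasone in intact females, against 12.87 to 13.27 with vehicle, and 3 of 6 rose there, whereas 0 of 6 passed in ovariectomized females. These sums weigh most on Dcn and Col3a1, with means of 12.28 and 11.97 in the intact dexamethasone group. Under dexamethasone 3 of these 6 were lower in ovariectomized than in intact females, with sums of 12.91 to 13.14 against 13.47 to 13.69. The 6 endothelial markers summed to 12.51 to 12.90 with dexamethasone in intact females, against 12.18 to 12.42 with vehicle, with 2 higher and 1 lower, and in ovariectomized females 1 was higher and 2 lower. Of 6 macrophage markers, 5 were lower in ovariectomized than in intact females under vehicle, where the 6 summed to 12.62 to 12.85 against 13.08 to 13.10, and 2 fell with dexamethasone in each state. The sums weigh most on Clec4f, with means of 11.91 and 12.15 in these vehicle groups. Under dexamethasone 4 of the 6 were lower, with sums of 12.45 to 12.76 in ovariectomized against 12.88 to 13.05 in intact females. Of 5 cholangiocyte markers, 2 (Spp1 and Epcam) were higher in ovariectomized than in intact females under vehicle, with sums of 11.30 to 11.57 against 10.94 to 11.02. Linear levels were summed, so these sums were largely Spp1 alone, with means of 11.32 and 10.83 in these groups. Krt19 had means of 5.49 and 5.53 and did not pass. With dexamethasone 2 of the 5 fell in ovariectomized females, with sums of 10.82 to 11.08 against 11.30 to 11.57 with vehicle, and 1 rose in intact females. The 7 hepatocyte markers summed to between 22.04 and 22.38 in all 12 libraries, a sum largely of Alb, whose group means were 21.66 to 21.94. With dexamethasone 3 of the 7 rose and 0 fell in ovariectomized females, and 2 rose and 1 fell in intact females. Of 5 T and NK cell markers 4 were in the table, 2 were tested and 0 passed in any comparison. No marker was at 0 in all libraries. The part of these cell types in the changes of the 9 genes was not tested.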

How the data were processed

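Liver RNA was made into Illumina TruSeq libraries, per the labels' protocols, and the submitters' processing notes name DESeq, DESeq2, HTSeq, TopHat2 and Trim Galore with build mm9. The authors deposited 1 table of log2 values, normalized between libraries, per the labels' description; its exact transformation is not given in the sources used here. Read depth cannot be recovered from it, so no counting interval is given, and fold changes of low genes may be understated. Where a symbol had several entries, only that with the highest mean was used. Genes with a mean of at least 4 (12965) were fitted over all 12 libraries with limma 3.58.1 (R 4.3.3; lmFit and eBayes, trended prior variance), with 5 comparisons. The threshold was a p under 0.05 after Benjamini-Hochberg adjustment over all genes tested. The fit was tested on simulated data. The 9 genes, the gene lists and the alternatives were chosen with earlier results of these data known. The text names all 9 genes, per list up to 4 genes that passed, by size of change, besides Arntl, Per1, Fkbp5 and Tsc22d3, and for each of the 9 the 3 most alike genes. Cyp7b1, Sphk2 and Thra were named after their values were seen. A gene that the rule takes is not reported here, though counts include it. Alternatives were a minimum mean of 6 or none, a linear pseudocount of 8, recentred or quantile-normalized libraries, library weights, a robust prior, a prior without trend, a fit of only the libraries compared, a replicate block, and a fit without each library in turn. Promoters came from the RefSeq table of GRCm38.p6.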

Additional observations from a re-analysis of the deposited data

Results flagged for a closer look

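The 17 genes given here were taken because their dexamethasone response differed between ovariectomized and intact females in limma. The test was that of the difference itself. Their number is therefore a selection and not a result, and 24.9% of all genes tested passed the same test. Of the 17, 2 genes, Hlf (0.45) and Bhlhe40 (-0.80), belong to the 9 described above. The others belong to the surrounding lists, and each value is the log2 response in ovariectomized minus that in intact females. A higher response is thus not always a stronger one. In ovariectomized and intact females the responses were -0.09 and -0.65 for Cyp2c29, and 0.10 and -0.16 for Csnk1d. Over all genes tested 15.3% had a higher and 9.65% a lower response, and the counts of each list stand against these shares. In the core clock, 3 of 14 genes had a higher response and 0 a lower one, near these shares. The 3 were Cry1 (0.73), Clock (0.43) and the casein kinase gene Csnk1d (0.25). Of 8 other outputs, Lonrf3 (0.97), Por (0.82) and Nampt (0.63) had a higher and Ccrn4l (-1.44) a lower response. Of 12 REV-ERB and ROR targets, 3 were higher (Insig2, 0.65, with Cry1 and Clock) and 2 lower, among them the glucose-6-phosphatase gene G6pc (-0.92). Of 14 PAR bZIP targets 3 were higher and 0 lower, also near these shares, and the 3 were Cyp7a1 (0.97), Cyp2c29 (0.56) and Por. Of 8 glucocorticoid control genes, Zbtb16 (1.58), Fkbp5 (1.01) and Klf9 (0.97) had a higher and Dusp1 (-1.39) a lower response. Adjusted p-values over all 12965 genes lay between 0.00218 for Por and 0.0443 for Insig2. Groups of 3 are too small for a test of single outlying libraries.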

How the results depend on the processing

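Of 981 values of the 9 genes recomputed, 897 kept their direction and their side of the threshold, 40 lost and 27 gained a call, and 17 changed sign. The dexamethasone calls of Dbp, Nr1d2 and Ciart in both states, of Rora and Hlf in intact and of Nr1d1, Tef and Bhlhe40 in ovariectomized females held throughout. With 1 library left out, 6 genes passed in ovariectomized and 5 to 8 in intact females with dexamethasone, 0 to 4 by gonadal state under vehicle, 0 to 5 under dexamethasone and 0 to 5 for the difference between responses. Under vehicle the count by gonadal state was 0 with no filter and 2 with no variance trend. Under dexamethasone it was 7 with library weights. The difference count was 0 with no filter, 1 with quantile normalization and 6 with library weights. Over all genes, library weights gave 5919 calls by gonadal state under vehicle, 5777 under dexamethasone and 6659 for the difference, against 3618, 1662 and 3234. Under dexamethasone no filter gave 822, quantile normalization 768 and only the libraries compared 601. Leaving out 1 library gave 2215 to 3989, 207 to 1852 and 2174 to 3520 for these comparisons, and 3982 to 5623 and 5214 to 6290 for dexamethasone in ovariectomized and intact females. Signs changed only in values that had not passed. By gonadal state under vehicle, quantile normalization gave 0.0136 for Nr1d2 and 0.0188 for Tef, and leaving out 1 library gave -0.0719 to 0.0277 for Nr1d2, -0.0011 to 0.24 for Dbp and -0.087 to 0.0095 for Tef. Under dexamethasone Nr1d1 was at -0.0232 with quantile normalization, at -0.14 with library weights and between -0.19 and 0.25 with 1 library left out. For the difference the range was -0.26 to 0.17 for Nfil3 and -0.26 to 0.10 for Ciart. The cause was not tested.

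No pairing by replicate number was evident. Same-numbered libraries correlated from -0.23 to 0.40 in their deviations from group means, with 6 of 18 pairs over 0.1. Of 12 libraries, 5 correlated best with their own number. These values have no reference for unpaired libraries, so they cannot exclude a pairing. With the replicate number as a block, 6 genes passed in ovariectomized and 7 in intact females with dexamethasone (Tef was added, limma adjusted p = 0.0273), 4 and 0 by gonadal state under vehicle and dexamethasone, and 2 for the difference, and the counts over all genes were 5155, 6241, 3450, 1533 and 3118. Groups of 3 libraries and values without read depth limit what can be seen of the smaller changes in Rora, Tef, Hlf and Nfil3.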
